A study of Mus musculus with 6 samples.

Results

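Cyclins are the regulatory subunits that switch on cyclin-dependent kinases, and their successive synthesis and destruction carries a cell through its division cycle. D-type cyclins respond to growth factors and bring Cdk4 and Cdk6 to the retinoblastoma proteins, E-type cyclins with Cdk2 open DNA replication, cyclin A2 acts in S phase and G2, and B-type cyclins with Cdk1 drive mitosis. In ECs, cyclin D1 is a well-known target of growth factor and matrix signals, and most ECs of an adult vessel bed rest outside the cycle. The 10 genes described here, taken by symbol from a fixed list, are the D-type cyclins Ccnd1, Ccnd2 and Ccnd3, the E-type cyclins Ccne1 and Ccne2, the A-type cyclin Ccna2, the B-type cyclins Ccnb1 and Ccnb2, and the related genes Ccnf and Ccng1. All 10 were found among the 22026 gene symbols of the data.

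RNAseq was carried out on choroid ECs of 129/B6 mice at postnatal day 5 (P5), while the retina is still differentiating, and at postnatal day 30 (P30), at visual maturity, with 3 isolations per age. No animal was treated or carried an engineered allele as far as the labels say, both sexes were used at least at P30, and the eyes of 7 animals were pooled in each isolation, so the spread between isolations is a spread between pools. The ECs were labelled in the living animal with an antibody to VE-Cadherin and sorted from dissected RPE/choroid. Levels are FPKM, fragment numbers scaled to transcript length and, between samples, by upper quartile and GC normalization. Genes can thus be compared with each other and, as far as this normalization holds, between ages.

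The summed FPKM of 10 endothelial markers lay between 21779 and 23403 at P5 and between 30645 and 37052 at P30. None of these markers was at 0 throughout. Of the 10, 6 were higher in every P30 isolation than in any P5 isolation, against 22.0% of the genes tested. Cdh5, the gene of VE-Cadherin, was the 1 lower in every P30 isolation, against 33.0%, with a mean of 2971 at P5 and 1885 at P30. Endothelial markers were thus present at both ages, but these values do not measure purity. RNA of other cells was also present and differed between isolations. The summed FPKM of 7 pericyte markers lay between 468 and 1712 at P5 and between 1841 and 6228 at P30, that of 8 RPE markers between 66.5 and 152 and between 499 and 3825, and that of 7 haematopoietic markers between 541 and 802 and between 318 and 809. Of these 7 haematopoietic genes, 3 were lower in every P30 isolation than in any P5 isolation and 0 were higher, against 33.0% and 22.0% of the genes tested. Of the smaller lists, smooth muscle markers summed to at most 593 at P5 and 1451 at P30, fibroblast markers to at most 898 and 3189, pigment cell markers to at most 468 and 1270.0, photoreceptor markers to at most 7.87 and 354, erythroid markers, of which 2 were at 0 throughout, to at most 484 and 1395, and Schwann cell markers to at most 318 and 1212. Among pericyte markers, 4 of 7 were higher in every P30 isolation than in any P5 isolation, as were 7 of 8 RPE markers. The same held for 5 of 6 smooth muscle, 4 of 7 fibroblast, 1 of 6 pigment cell and 6 of 7 photoreceptor markers. It also held for 1 of 6 erythroid and 5 of 6 Schwann cell markers, against 22.0% of the genes tested. In each of these lists 0 markers were lower in every P30 isolation, against 33.0%. The part of the other cells in the cyclin results was not tested. In these bulk samples, fewer dividing cells and less cyclin RNA per dividing cell cannot be told apart.

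From P5 to P30 the cyclins of S phase and mitosis fell to a few percent of their level or less, the E-type pair fell by unequal amounts, and the D-type cyclins exchanged their order. Of the 10 cyclins, 6 (Ccnd1, Ccne1, Ccna2, Ccnb1, Ccnb2 and Ccnf) were lower at P30 by the limits used here, an adjusted p under 0.01 from limma and a change in mean FPKM + 1 of 2-fold or more, and 5.82% of the 12481 genes tested were lower by the same limits. None was higher by these limits, against 5.89% of the genes tested, although Ccnd2 and Ccnd3 were higher at an unadjusted p under 0.05 in limma, 2 genes in all. Of all genes tested, 28.8% were lower and 20.7% higher at that unadjusted p. Genes entered the test when their mean FPKM was 5 or more at P5, at P30 or at both. All 10 cyclins met this minimum, but 4 of them (Ccne1, Ccnb1, Ccnb2 and Ccnf) met it only through P5 and therefore had to differ. The count of 6 and the adjusted p given below for these 4 genes are thus descriptions. The isolations of the ages did not overlap in any of the 10 genes, with 8 lower at P30 and 2 higher, against 33.0% and 22.0% of the genes tested.

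**Figure D1:**
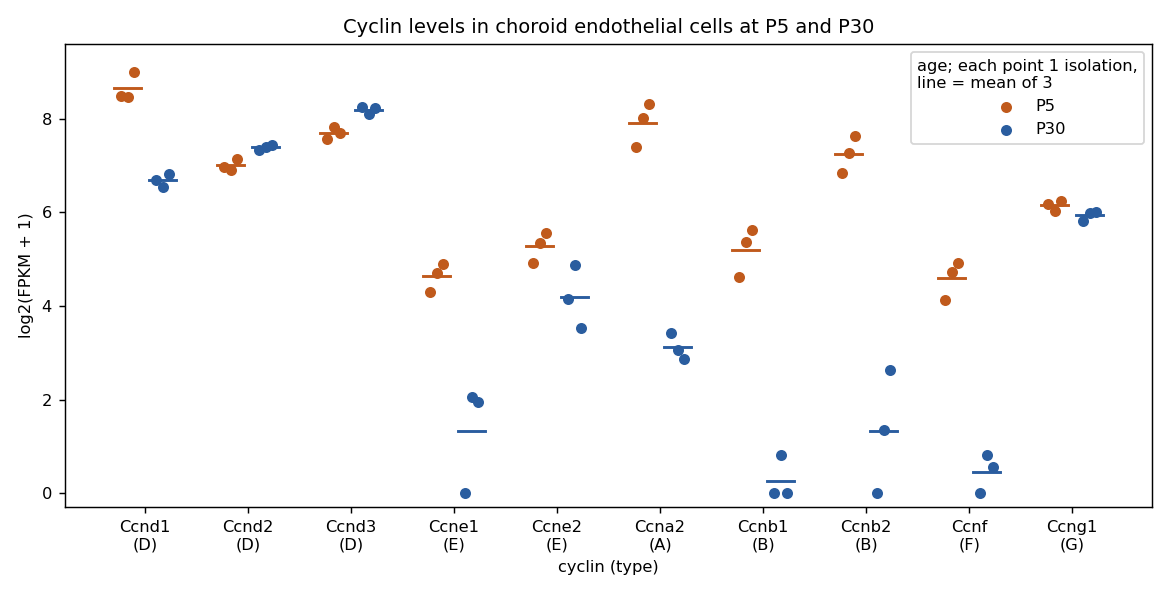
Level of each of the 10 cyclins, on the y axis as log2(FPKM + 1), with 1 point for each of the 3 isolations at P5 and at P30 and a line at the mean of the plotted values. The points of the ages are apart for every gene, by the widest margins for Ccna2, Ccnb1, Ccnb2 and Ccnf and by narrow ones for Ccnd2, Ccne2 and Ccng1.

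Stretches upstream of the mitotic cyclins are shown because these genes moved together, with that of Ccng1 for contrast. RefSeq promoters (GRCm38.p6, a later build than the mm9 of the FPKM values) were at hand for 6 of the 10 genes, Ccnd3, Ccne1, Ccnb1, Ccnb2, Ccnf and Ccng1, and not for Ccnd1, Ccnd2, Ccne2 and Ccna2. The 250 bases before the annotated start are printed 5′ to 3′ on the gene's strand. Capitals mark CCAAT on either strand (the box bound by NF-Y, which reads ATTGG on the other strand), TTTGAA on either strand (the cell cycle homology region, CHR, known from late cell cycle genes) and, in Ccng1, a match to the p53 half-site. The windows lie on the minus strand at chr13:100786487-100786736 for Ccnb1, chr9:70421555-70421804 for Ccnb2, chr17:24251410-24251659 for Ccnf and chr11:40755287-40755536 for Ccng1.
Ccnb1: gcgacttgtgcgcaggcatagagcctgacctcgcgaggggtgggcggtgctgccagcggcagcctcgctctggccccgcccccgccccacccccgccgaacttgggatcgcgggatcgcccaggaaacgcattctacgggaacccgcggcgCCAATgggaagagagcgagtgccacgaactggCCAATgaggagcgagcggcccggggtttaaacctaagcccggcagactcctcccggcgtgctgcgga
Ccnb2: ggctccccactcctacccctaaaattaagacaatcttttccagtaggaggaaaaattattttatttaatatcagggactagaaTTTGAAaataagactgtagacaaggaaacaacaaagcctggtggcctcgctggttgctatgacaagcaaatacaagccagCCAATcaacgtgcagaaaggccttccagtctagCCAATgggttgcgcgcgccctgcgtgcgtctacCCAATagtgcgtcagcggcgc
Ccnf: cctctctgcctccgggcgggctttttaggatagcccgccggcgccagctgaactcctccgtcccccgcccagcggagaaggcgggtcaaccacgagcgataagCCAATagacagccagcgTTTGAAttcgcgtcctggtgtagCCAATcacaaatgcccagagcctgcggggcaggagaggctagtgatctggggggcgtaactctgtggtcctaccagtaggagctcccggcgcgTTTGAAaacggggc
Ccng1: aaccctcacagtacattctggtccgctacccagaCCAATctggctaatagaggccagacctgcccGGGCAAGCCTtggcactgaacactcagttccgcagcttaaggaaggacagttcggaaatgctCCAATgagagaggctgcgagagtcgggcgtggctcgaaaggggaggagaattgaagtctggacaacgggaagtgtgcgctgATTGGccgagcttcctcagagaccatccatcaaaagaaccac

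CCAAT was found 2 times in the Ccnb1 window, 3 times in Ccnb2, 2 times in Ccnf and 3 times in Ccng1. Of 32851 RefSeq windows of the same length, 33.9% held it and 10.1% held it at least 2 times. The boxes of Ccnb2 began 87, 54 and 21 bases before the start, and those of Ccnb1 began 99 and 67 bases before it. TTTGAA was found 2 times in Ccnf, 130 and 14 bases before the start, and 1 time in Ccnb2, 167 bases before it, and 16.0% of all windows held it. The other windows did not hold TTTGAA. Ccng1, which did not pass the limits, held as many CCAAT boxes as Ccnb2. Ccng1 is a known target of p53, and its window held 1 match to the p53 half-site, 185 bases before the start, as 7.13% of all windows did. No E2F site spelled TTTCGCGC, TTTGGCGC or TTTCCCGC lay in any of the 6 genes' windows, and 1.53% of all windows held such a site. Ccne1 held none of these motifs in its window, and of the annotated starts of Ccnd3 the upstream window held none and the downstream window held CCAAT 1 time. These matches are of letters and do not show binding.

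Ccnd1 encodes cyclin D1, the D-type cyclin most tied to growth factor input. Its gene lies on chromosome 7, 152115836 to 152125774 of mm9. The P5 isolations, given here and below in the order of their replicate numbers, had 359.9, 354 and 511 FPKM, and the P30 isolations 102, 92.2 and 112. The lowest P5 isolation was thus well above the highest P30 isolation. The mean fell from 408 ± 89.1 (SD, n = 3) to 102 ± 10.05 (SD, n = 3), to 25.0% of the P5 level, with a log2 difference of -1.97 (SE 0.16, adjusted p = 0.000284 from limma). Even so, Ccnd1 was above the level of 76.4% of the genes with any FPKM at P30, against 96.0% at P5. Of the 9939 bases of Ccnd1, 818 overlap Oraov1 on the opposite strand, whose FPKM ranged from 31.7 to 39.9 at P5 and from 15.95 to 29.15 at P30.

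Ccnd2 encodes cyclin D2, which binds the same kinases, and lies on chromosome 6, 127075797 to 127101066. Ccnd2 shares 1660 of its 25270 bases with 9330179D12Rik on the opposite strand, which has no FPKM here. It had 124, 119 and 139.9 FPKM in the P5 isolations and 160.1, 168 and 172 in the P30 isolations. Every P30 value was above every P5 value, but by a smaller distance than for Ccnd1. The log2 difference was 0.39 (SE 0.10), and its adjusted p of 0.0226 from limma missed the limit. Ccnd3, which encodes cyclin D3, lies on chromosome 17, 47642000 to 47736632, and shares 353 of its 94633 bases with Bysl on the opposite strand. It had 189.6, 225 and 207 FPKM at P5 and 303, 276 and 299.6 at P30. Its isolations likewise did not overlap, and the mean went from 207 ± 17.9 (SD, n = 3) to 293 ± 14.6 (SD, n = 3), a log2 difference of 0.50 (SE 0.10). The adjusted p of Ccnd3 was 0.00857 in limma, but the difference was below 2-fold. This adjusted p lay above 0.01 in 9 of 17 alternatives, among them each of the 6 fits without 1 isolation, where it lay between 0.0120 and 0.0390 in limma. The direction of Ccnd2 and Ccnd3 was the same in all 17 alternatives, quantile normalization and median scaling included.

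Because Ccnd1 fell while Ccnd2 and Ccnd3 did not, the make-up of the D-type RNA changed more than its amount. The summed FPKM of the 3 genes was 674, 698 and 858 at P5 and 564, 536 and 584 at P30, so the P30 mean was 75.6% of the P5 mean. Ccnd1 made up 53.4%, 50.6% and 59.5% of this sum in the P5 isolations and 18.0%, 17.2% and 19.2% in the P30 isolations. Ccnd3 went from 28.2% ± 4.06 (SD, n = 3) to 52.1% ± 1.30 (SD, n = 3) and became the most abundant D-type cyclin in each P30 isolation. Ccnd2 went from 17.3% ± 1.07 to 29.7% ± 1.503 of the sum (SD, n = 3).

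Ratios of paired genes within a sample hardly depend on how the sample was scaled, and 5 such ratios of log2(FPKM + 1) were compared between the ages. Ccnd1 over Ccnd2 went from 1.65 ± 0.18 to -0.71 ± 0.13 on the log2 scale (SD, n = 3), a difference of -2.36 (exact two-sided permutation test, p = 0.1, adjusted p = 0.167 over the 5 ratios). Ccnd1 over Ccnd3 went from 0.96 ± 0.33 to -1.51 ± 0.09 (SD, n = 3), a difference of -2.47, with the same exact permutation p of 0.1. This p is the smallest that 3 isolations against 3 allow, so none of the ratios could pass 0.05. Ccnd2 over Ccnd3 differed by -0.11 between the ages, within the spread between isolations (exact permutation p = 0.4). No difference between Ccnd2 and Ccnd3 in their response was detectable with these isolations.

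**Figure D2:**
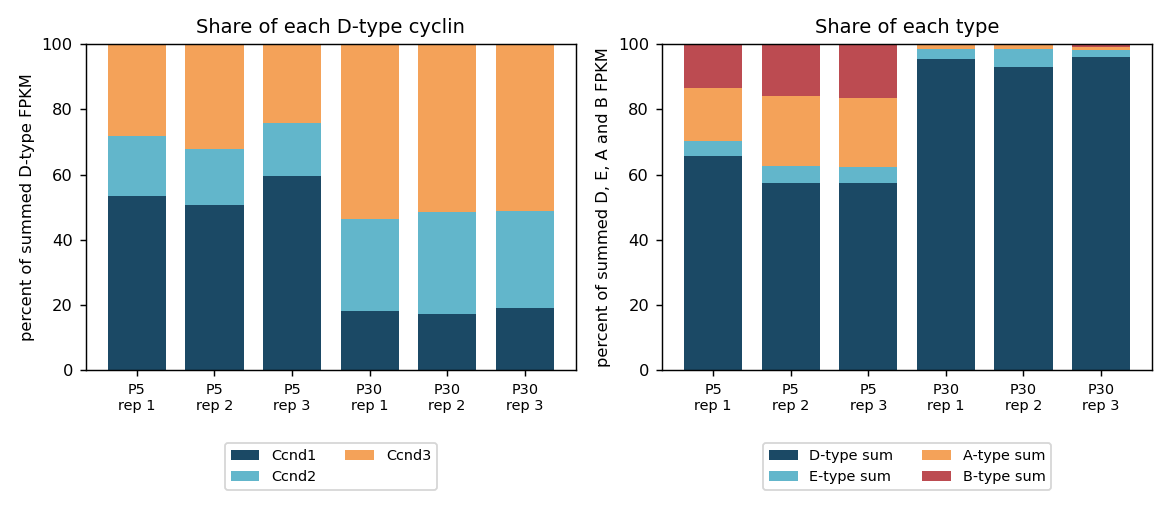
Shares of summed FPKM in each of the 6 isolations, in percent, with the D-type cyclins by gene on the left and the D, E, A and B types on the right. Ccnd1 holds the largest D-type share in the 3 P5 isolations and the smallest in the 3 P30 isolations, where the D types together make up at least 92.9% of all 4 types.

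The E-type cyclins bind Cdk2 at the entry to S phase. Ccne1 (chromosome 7, 38883003 to 38892553) had 18.6, 25.2 and 28.7 FPKM at P5, and at P30 it was listed at 0, 3.16 and 2.89. It thus met the minimum FPKM only through P5. The log2 difference was -3.29 (SE 0.57, adjusted p = 0.00459 from limma), and -4.59 and -2.07 with pseudocounts of 0.1 and 5. This call was lost without any of the P5 isolations, at an adjusted p from limma of 0.0170, 0.0260 and 0.0291 without P5 replicates 1, 2 and 3, and with a pseudocount of 0.1, at 0.0285. Ccne2 (chromosome 4, 11118498 to 11131926) had 29.4, 39.9 and 46.0 FPKM at P5 and 16.8, 28.3 and 10.6 at P30. P30 replicate 2 came close to the lowest P5 isolation, P5 replicate 1. The log2 difference of Ccne2 was -1.09 (SE 0.34, adjusted p = 0.0412 from limma), which missed the limit. It lay between -1.43 without P30 replicate 2 and -0.77 without P30 replicate 3, and missed the limit without each isolation in turn. Of the 13429 bases of this gene, 5622 overlap Ints8 on the opposite strand, whose FPKM ranged from 68.3 to 89.5 at P5 and from 24.1 to 63.1 at P30.

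Within the E-type sum, Ccne1 held between 38.4% and 38.8% in the 3 P5 isolations, the narrowest spread of any share here, although the sum itself ranged from 48.0 to 74.7 FPKM. At P30 its share was 0%, 10.04% and 21.4%. The log2 ratio of Ccne1 over Ccne2 was -0.65 ± 0.02 at P5 and -2.85 ± 1.29 at P30 (SD, n = 3), a difference of -2.20 (exact permutation p = 0.1, adjusted p = 0.167). The P30 value rests on very low FPKM of Ccne1, and the difference was -3.46 with a pseudocount of 0.1, -1.14 with 5 and -1.55 without P30 replicate 1, where Ccne1 was listed at 0.

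Ccna2, the cyclin of S phase and G2, was the second most abundant of the 10 at P5, and lies on chromosome 3, 36463788 to 36471072. It had 167, 259.65 and 318 FPKM in the P5 isolations and 9.75, 7.38 and 6.25 in the P30 isolations. The mean fell from 248 ± 76.0 to 7.79 ± 1.79 (SD, n = 3), to 3.14% of the P5 level, a log2 difference of -4.79 (SE 0.26, adjusted p = 9.2e-05 from limma). Among the cyclins that fell to under 5% of their P5 level, Ccna2 was the only gene above 0 in all 3 P30 isolations. Its gene shares 864 bases with Exosc9 on the opposite strand, which had 35.1, 49.9 and 42.1 FPKM at P30, and with no strand kept by the counting as far as stated, reads of the pair in these bases cannot be told apart.

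The B-type cyclins, which activate Cdk1 for mitosis, fell together to 1.30% of their summed P5 level. Ccnb1 (chromosome 13, 101548605 to 101556525) had 23.7, 40.2 and 48.3 FPKM at P5 and was listed at 0, 0.75 and 0 at P30, with a log2 difference of -4.94 (SE 0.41, adjusted p = 0.000293 from limma). With P30 values at or near 0, the size of such a difference is set largely by the pseudocount, and for Ccnb1 it was -7.46 with a pseudocount of 0.1 and -2.97 with 5. Ccnb2 (chromosome 9, 70255496 to 70269361) had 114, 154 and 199 at P5 and was listed at 0, 1.57 and 5.21 at P30, with a log2 difference of -5.92 (SE 0.61, adjusted p = 0.000540 from limma), or -7.31 and -4.50 with those pseudocounts. Both genes met the minimum FPKM only through P5. They were far apart between the ages, and Ccnb2 varied more at P30 than Ccnb1 did. The log2 ratio of Ccnb1 over Ccnb2 differed by 0.99 between the ages, within the spread of the P30 isolations (exact permutation p = 0.4), and with a pseudocount of 0.1 this difference was -0.16. In P30 replicate 1 both genes were listed at 0, so its log2 ratio of 0 was set by the pseudocount alone. At P5, Ccnb1 made up 19.1% ± 1.78 (SD, n = 3) of the B-type sum.

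The measured share of Ccnb1 has a limit of its own. The mouse genome (mm9) holds other loci that resemble the spliced Ccnb1 transcript, and the closest, on chromosome 7 at 49361155 to 49362676, matched 1522 of its 2489 bases at 96.7% identity and is annotated as the pseudogene Gm5593. Another on chromosome 4, 118614557 to 118616052, matched 1496 bases at 92.2% and is annotated as the pseudogene Gm12856. Neither pseudogene is a row of the tables, and how reads that fit several places were counted is not given in the sources used here. Ccnd3 has 1 such copy, the pseudogene Ccnd3-ps on chromosome 4, at 80.9% identity over 1803 bases. No copy of 1000 or more aligned bases was found for the other 8 genes.

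Ccnf encodes cyclin F, the substrate-binding part of a ubiquitin ligase that peaks in G2 and does not activate a kinase. It lies on chromosome 17, 24359494 to 24388292, and had 16.4, 25.5 and 29.4 FPKM at P5 and was listed at 0, 0.75 and 0.48 at P30. These groups were far apart, and Ccnf met the minimum FPKM only through P5. Its log2 difference was -4.13 (SE 0.40, adjusted p = 0.000470 from limma), or -5.98 with a pseudocount of 0.1 and -2.39 with 5. Ccng1, which encodes cyclin G1, is not needed for the cycle to turn and is best known as a p53 target. It lies on chromosome 11, 40562054 to 40568813, and had 71.85, 64.0 and 75.3 FPKM at P5 and 55.15, 62.8 and 63.55 at P30. The highest P30 value and the lowest P5 value were almost equal. The log2 difference of -0.21 (SE 0.12) did not pass the limit (adjusted p = 0.203 from limma), and the median over all genes tested was -0.10.

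**Figure D3:**
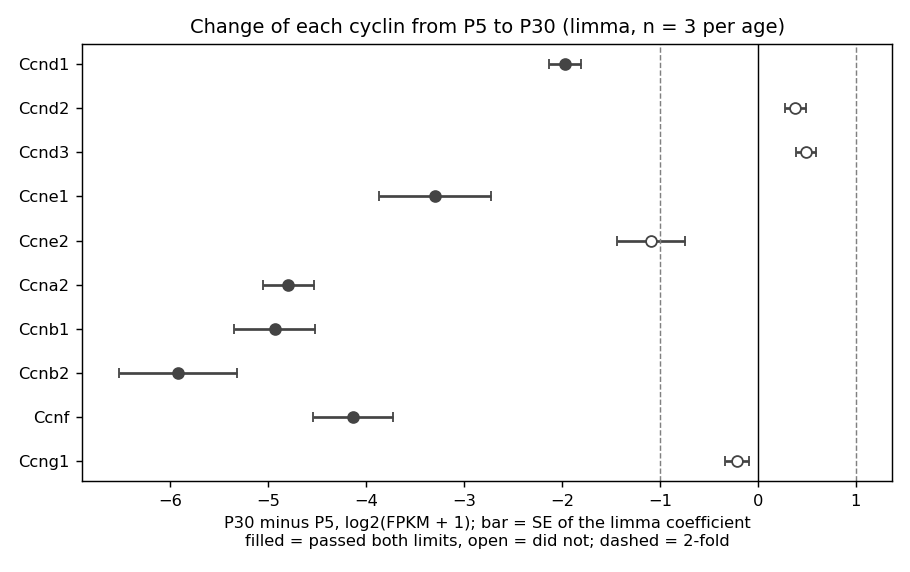
Difference of each cyclin between the ages, P30 minus P5 on the log2(FPKM + 1) scale, with the SE of the limma coefficient as bars, filled points for genes that passed both limits and dashed lines at a 2-fold difference. With the pseudocount of 1 used here the 6 filled points run from -1.97 for Ccnd1 to -5.92 for Ccnb2, while with 0.1 Ccnb1 lies lowest, at -7.46, and the 4 open points are Ccnd2, Ccnd3, Ccne2 and Ccng1.

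The order of the cyclins by mean FPKM changed with age. At P5 it was Ccnd1, Ccna2, Ccnd3, Ccnb2, Ccnd2, Ccng1, Ccne2, Ccnb1, Ccne1 and Ccnf. The isolations of Ccnd1 and Ccna2 did not overlap, nor did those of Ccnd2 and Ccng1 or of Ccng1 and Ccne2, while all other neighbours in this order overlapped. At P30 the order was Ccnd3, Ccnd2, Ccnd1, Ccng1, Ccne2, Ccna2, Ccnb2, Ccne1, Ccnf and Ccnb1. Down to Ccnb2, no gene of that order overlapped with the one before it, and the last 4 overlapped with each other near 0. Of the summed FPKM of the D, E, A and B types, the D types made up 60.1% ± 4.78 at P5 and 94.8% ± 1.65 at P30 (SD, n = 3). The A type made up 19.6% ± 2.89 and 1.32% ± 0.31, and the B types 15.3% ± 1.63 and 0.419% ± 0.43 (SD, n = 3). The E types changed least as a part of the whole, from 5.00% ± 0.34 to 3.50% ± 1.72 (SD, n = 3), although their own sum fell to 32.9% of its P5 level.

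The P5 isolations differed among themselves in most of the cyclins that were lower at P30. In 6 of the 10 genes, Ccne1, Ccne2, Ccna2, Ccnb1, Ccnb2 and Ccnf, P5 replicate 1 was the lowest and P5 replicate 3 the highest, and 19.3% of the genes tested had that order. P5 replicate 3 was above P5 replicate 1 by 2.04-fold in Ccnb1, 1.90-fold in Ccna2, 1.79-fold in Ccnf, 1.74-fold in Ccnb2, 1.57-fold in Ccne2 and 1.54-fold in Ccne1. For Ccnd1, in which P5 replicate 2 was the lowest, the same ratio was 1.42. It was 1.13 for Ccnd2, 1.09 for Ccnd3 and 1.05 for Ccng1, so the genes without a call between the ages were also steadier within P5, apart from Ccne2. The pericyte markers ran the other way, with a summed FPKM of 1712, 894 and 468 in P5 replicates 1, 2 and 3. The haematopoietic sum also fell, with 802, 752 and 541. Ptprc of that list, however, had 25.4, 27.7 and 28.3 FPKM, in the same order as the 6 cyclins. The endothelial sum was 22642, 23403 and 21779. The part of these other cells in the spread of the cyclins was not tested.

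**Figure D4:**
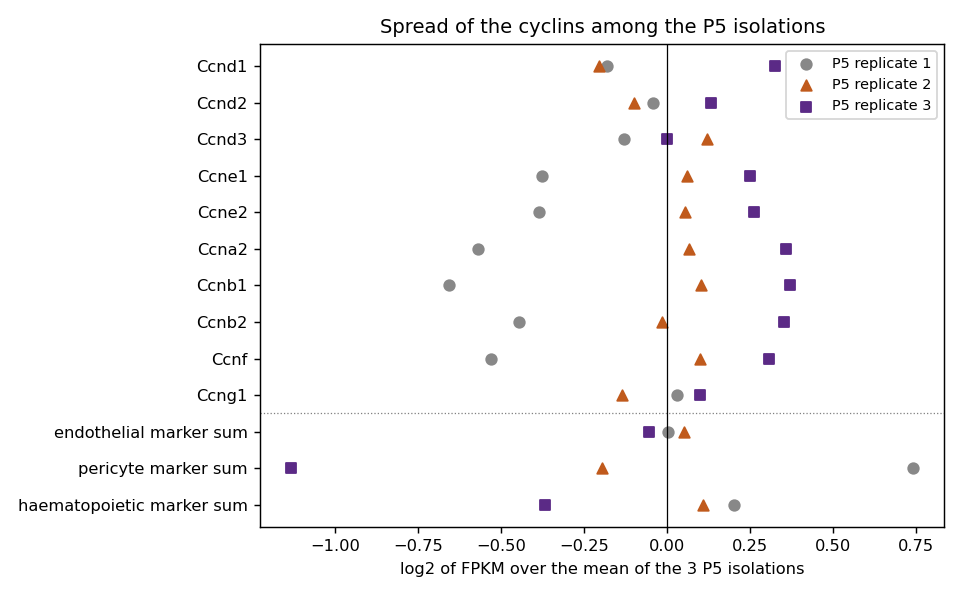
Spread among the 3 P5 isolations, as log2 of FPKM over their mean, for the 10 cyclins and, below the dotted line, for 3 summed marker lists. P5 replicate 1 is lowest and P5 replicate 3 highest for Ccne1, Ccne2, Ccna2, Ccnb1, Ccnb2 and Ccnf, while the pericyte sum runs from 1712 in replicate 1 to 468 in replicate 3.

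Across ages, Ccnd2, Ccnd3 and Ccng1 were also the steadiest within P30, with an SD of log2(FPKM + 1) of 0.05, 0.07 and 0.11, against a median of 0.26 over the genes tested. Ccne2, with an SD of 0.67 at P30, Ccne1, with 1.16, and Ccnb2, with 1.32, were the more variable ones. At P5 the SD of Ccnb1 was 0.52 and that of Ccna2 0.47, against a median of 0.13 over the genes tested.

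Most of the kinases and regulators that work with the cyclins were lower at P30, Cdk2, Cdk4 and Cdk6 being the ones that did not pass the limits. Of 11 genes in this list, all tested, 8 were lower at P30 and 0 higher in limma, against 5.82% and 5.89% of all genes tested. At an unadjusted p under 0.05, 10 were lower and 0 higher, against 28.8% and 20.7%, and their median log2 difference was -1.42, against -0.10 over all genes tested. Cdc25c, Cdk1 and Cdk6 met the minimum FPKM only through P5, so these counts are a description. Cdk1, the kinase of the B-type cyclins, had 105, 142 and 161 FPKM at P5 and 1.34, 4.88 and 4.85 at P30 (log2 difference -4.97, SE 0.38, adjusted p = 0.000223 from limma). Cdc25c, the phosphatase that activates Cdk1, had 11.1, 21.4 and 26.8 FPKM at P5, and all 3 P30 values were listed as 0. Cks1b, a small kinase-binding protein, had a log2 difference of -2.67 (SE 0.44, adjusted p = 0.00386 from limma). Its P30 values spread widely, at 7.94, 24.6 and 31.75 FPKM. In a fit without the intensity trend its adjusted p from limma was 0.0103, and the call was lost. Cdk4, the partner of the D-type cyclins, had 454, 511 and 496 FPKM at P5 and 262, 261 and 242 at P30. This passed the adjusted p but not the 2-fold limit (log2 difference -0.93, adjusted p = 0.000486 from limma), and so did Cdk2, the partner of cyclins E and A (-0.73, adjusted p = 0.00628 from limma). With quantile normalization Cdk4 passed both limits (log2 difference -1.05, adjusted p = 0.000278 from limma). Without the intensity trend the adjusted p of Cdk2 from limma was 0.0159. Cdk6 had 5.26 ± 0.88 at P5 and 3.19 ± 0.61 at P30 (SD, n = 3), with an adjusted p of 0.242 from limma. The count of 8 in this list rests on the P5 isolations, as it was 2 without P5 replicate 2 and 4 without P5 replicate 3.

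Among the genes that destroy cyclins or hold that destruction back, those that fell act mainly in S phase and mitosis. Of 11 genes, all tested, 6 were lower at P30 and 0 higher in limma, against 5.82% and 5.89% of all genes tested, with 7 and 0 at an unadjusted p under 0.05, against 28.8% and 20.7%. The median log2 difference was -2.45. These counts too are a description, as Bub1b, Skp2 and Ube2c met the minimum FPKM only through P5. Ube2c, the ubiquitin-conjugating enzyme that serves the anaphase-promoting complex, had 86.5, 117.2 and 147 FPKM at P5 and 2.12, 1.99 and 2.89 at P30 (log2 difference -5.12, SE 0.24, adjusted p = 6.4e-05 from limma). Bub1b, a spindle checkpoint kinase that holds this complex back, had a log2 difference of -4.39 and Skp2, the F-box protein of the S phase ligase, one of -3.46, both past the limits in limma. Fzr1, the activator of the same complex outside mitosis, had 87.0, 88.1 and 88.4 FPKM at P5 and 41.6, 48.8 and 57.4 at P30, a log2 difference of -0.83 that did not reach 2-fold. Fbxo31 and Ambra1, which direct the destruction of D-type cyclins, had log2 differences of 0.21 and 0.13, with adjusted p of 0.439 and 0.548 from limma.

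Cyclins outside this set mostly serve transcription or other tasks. Of 17 such genes, 14 were tested, 2 were lower at P30 and 0 higher in limma, against 5.82% and 5.89% of all genes tested. At an unadjusted p under 0.05, 6 were lower and 2 higher, against 28.8% and 20.7%, and the median log2 difference was -0.24. The 2 higher were Ccnl1 and Ccno. Ccno met the minimum FPKM only through P30, so the count of 2 higher is a description. Those called were Ccnjl (-2.002, SE 0.22, adjusted p = 0.000712 from limma) and Ccnj (-1.33, SE 0.21, adjusted p = 0.00334 from limma), a pair of related genes of little-known role. The call of Ccnj was lost without each of the P5 isolations in turn, at an adjusted p from limma of 0.0146, 0.0214 and 0.0226 without P5 replicates 1, 2 and 3. Ccnl1, a cyclin tied to RNA splicing, had 425, 384 and 439 FPKM at P5 and 818, 1070.1 and 598 at P30. Its change in mean FPKM + 1 stayed just under 2-fold, at a log2 ratio of 0.99 (limma log2 difference 0.95, adjusted p = 0.00923 from limma). Ccnl1 passed both limits with median scaling and without P30 replicate 3, where the limma log2 difference was 1.05 and 1.17. In 11 of the 17 alternatives its adjusted p from limma was above 0.01, between 0.0101 and 0.0414, among them quantile normalization, where the log2 difference was 0.75.

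Ccng1 was set beside other genes known as p53 targets. Of 15 listed, 14 were tested, 4 were higher at P30 and 0 lower in limma, against 5.89% and 5.82% of all genes tested. At an unadjusted p under 0.05, 7 were higher and 1, Zmat3, lower, against 20.7% and 28.8%. Perp met the minimum FPKM only through P30 and so had to differ. The median log2 difference was 0.41. Cdkn1a, which encodes the kinase inhibitor p21, had 107, 73.9 and 79.4 FPKM at P5 and 1338, 1625 and 1380.1 at P30 (log2 difference 4.06, SE 0.16, adjusted p = 3.3e-05 from limma). Btg2, an antiproliferative gene, had a log2 difference of 3.35, Perp, a desmosome component, one of 3.55, and Fas, a death receptor, one of 2.08, all past the limits in limma. Mdm2 and Bax, both classic p53 targets, had log2 differences of 0.35 and 0.00 and adjusted p of 0.0356 and 0.995 from limma. Ccng1 was not among the genes that rose.

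**Figure D5:**
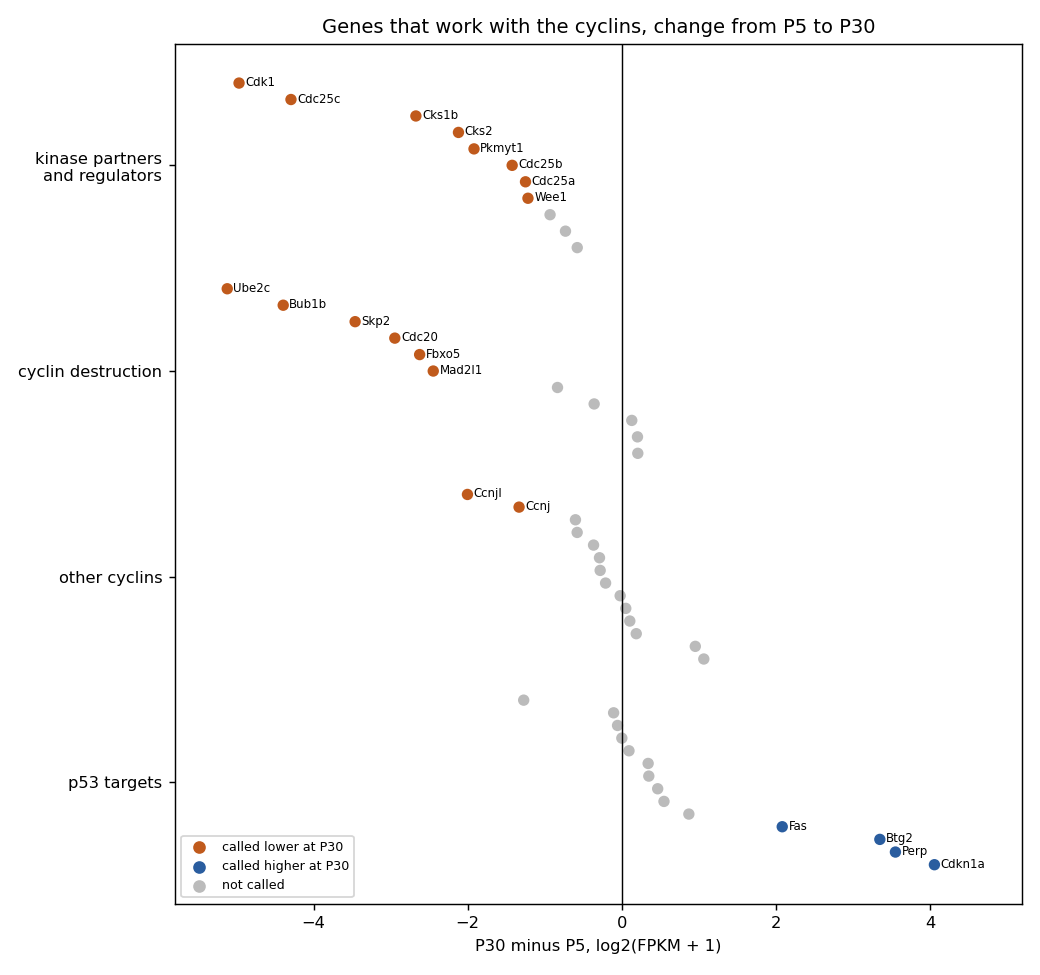
Difference of each tested gene of the 4 lists between the ages, P30 minus P5 on the log2(FPKM + 1) scale, coloured by call and with called genes named. The called kinase and destruction genes lie between -1.22 for Wee1 and -5.12 for Ube2c, the called p53 targets between 2.08 for Fas and 4.06 for Cdkn1a, and most other cyclins near 0.

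The genes whose pattern over the 6 isolations was nearest to each cyclin were found by the root mean square (RMS) difference of log2(FPKM + 1), after each gene was centred on its own mean, over the genes tested. For Ccnd1 they were Atad2 (0.11) and Mcm2 (0.13), of which Mcm2 is a subunit of the replicative helicase. For Ccna2 they were Tpx2 and Iqgap3 (0.14 and 0.17), and for Ccnb1 Nek2 and Kif2c (0.13 and 0.14), among which Tpx2, Nek2 and Kif2c act on the mitotic spindle or centrosome. Nek2 and Kif2c each had a mean of 0.23 FPKM at P30 and Ccnb1 had 0.25, so at P30 these patterns match near 0. For Ccne1 the nearest genes were Dctd and Plk4 (0.13 and 0.14), and for Ccnf Lmnb1 and Tacc3 (0.08 and 0.13). Ccnb2 had no gene as near, with Rrm2 at 0.35 and Cep55 at 0.55. Ccne2 was nearest to Mterfd3 and Kpna2 (0.13 and 0.14). The genes nearest to Ccnd2 were Acsl4 and Tspan15 (0.05 for both), those nearest to Ccnd3 were Tagln2 and Slc25a28 (0.05 for both), and Ccng1 was nearest to 2610008E11Rik and Npepps (0.04 for both).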

How the data were processed

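RNAseq of choroid ECs from 3 isolations at P5 and 3 at P30 was used, with ages and replicate numbers taken from the sample labels. Per the methods, the authors mapped the reads with TopHat on mm9. They deposited 1 FPKM value per gene symbol and isolation, computed by Cufflinks under upper quartile and GC normalization. CASAVA 1.8.2 and FastQC are also named in the submitters' processing notes, and the gene annotation is not given in the sources used here. No read counts were used, so the depth is unknown and no counting error is given. For ratios of FPKM values under 1 between samples, at most 6.72% of genes lay in a bin of log2 ratio, and no sample pair held the same values. No expected share was computed for such a bin, so this does not show whether values under 1 rest on single reads.

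From these files, log2(FPKM + 1) was modelled by age with limma 3.58.1 (R 4.3.3, moderated test with an intensity trend). The 12481 genes whose mean FPKM was 5 or more at either age were tested. Calls needed a Benjamini-Hochberg adjusted p below 0.01 together with a change of 2-fold or more in mean FPKM + 1. Ratios were compared with exact two-sided permutation tests in scipy 1.17.1. Simulated data with known changes were used to test the model. Copies in the genome were sought with minimap2 2.31. Positions in mm9 were read from GENCODE. The members and lists were chosen with earlier results of these data known. All 10 cyclins were named, with the 3 largest called changes per list and direction, other list genes needed to describe a list, and the 2 nearest patterns per cyclin. Alternatives were other pseudocounts, minimum FPKM values, scalings, trends, the limma coefficient as fold, a replicate block and each isolation left out.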

Additional observations from a re-analysis of the deposited data

How the results depend on the processing

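The count of cyclins lower at P30 was 5 or 6 in all 17 alternatives and that of cyclins higher was 0 in all. Directions of all 10 genes were the same throughout. Over all genes tested, 726 were lower and 735 higher, and these counts fell without P5 isolations: leaving out each isolation in turn gave between 291 and 754 genes lower (291 without P5 replicate 2, 297 without P5 replicate 3, 427 without P5 replicate 1) and between 396 and 849 higher (404 without P5 replicate 2, 396 without P5 replicate 3). With the replicate block, 524 genes were lower and 585 higher, 6 of the cyclins among the former. The block gave the adjusted p of Ccnd3 as 0.0297 and that of Ccnj as 0.0127 in limma. Same-numbered isolations showed no positive pairing, as the correlation of their deviations from the age means was -0.06, -0.09 and -0.03. The difference in the ratio of Ccnb1 over Ccnb2, 0.99 on the log2 scale, was -0.16 with a pseudocount of 0.1, and between 0.46 and 1.77 with each isolation left out. In P30 replicate 1 both genes were listed at 0, so the ratio of that isolation was set by the pseudocount alone, and the difference has no firm size. The sums by type and the other ratios kept their direction with each isolation left out. Genes listed at 0 in P30 isolations cannot be called absent, since no depth was known.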
